A study of Mus musculus with 12 samples.

Results

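Peaks of Argonaute (Ago) HITS-CLIP reads on the mRNAs of 8 apolipoprotein genes were examined in mouse fetal liver: Apob, Apoa1, Apoa2, Apoa4, Apoc1, Apoe, Apoh and Apom. HITS-CLIP crosslinks RNA to the protein that holds it, precipitates the protein and sequences the RNA fragments that come with it. Peaks were taken where the deposited peak table names one of the 8 genes, whatever the reads in the peak. The rule found 216 peaks of 106382, on 7 of the 8 genes, and 12102 genes had a peak in all. Apoa4, whose product travels on lipoproteins made in the gut and liver, had no peak of its own. The peak nearest past its end, chr9:46247734-46247753, was classed as intergenic and began 4275 nt beyond the gene. The table lists called peaks alone, so the 0 reads of Apoa4 set no upper limit on its level.

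The fetal livers were of strain C57BL/6J and either wild type (WT) or without the miR-144/451 locus (KO), a pair of erythroid microRNAs. Whole fetal liver cells were precipitated for Ago or, as a control, with IgG, in 4 groups of 3. These were WT Ago (libraries 1, 9 and 10), KO Ago (3, 12 and 13), WT IgG (2, 6 and 11) and KO IgG (4, 8 and 14), numbered as in their titles, and values of single libraries follow this order. The sources used here do not give the age of the embryos or say whether a library came from 1 liver or a pool, so p-values reflect the variation among these libraries, which may be technical in part. No sorting is named, and markers of hepatocytes and of blood-forming cells both had reads.

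Apolipoproteins are the proteins of lipoprotein particles, and in the fetus they are made by hepatocytes and the yolk sac. Apob encodes the scaffold of very-low-density and low-density lipoproteins, an unusually long secreted protein translated from an unusually long mRNA. Apoa1 and Apoa2 encode the main proteins of high-density lipoprotein, Apoe a ligand of lipoprotein receptors that macrophages make too, Apoc1 a small exchangeable inhibitor of lipid-handling proteins, and Apom a lipocalin that carries sphingosine 1-phosphate. Apoh, or beta-2-glycoprotein I, binds phospholipid and is counted with the family by name, not by sequence. Ago proteins hold microRNAs and are led by their seeds to mRNAs, most often in the 3′ UTR, and miR-451a is made mainly in red cell precursors. Hepatocyte mRNAs are thus seen here in a tissue where the deleted microRNAs belong mainly to another lineage.

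The Ago libraries held 147969 to 452157 reads in peaks and the IgG libraries 24622 to 42916. Genes of a list of 17 hepatocyte markers, led by Alb, Afp and Trf and without any apolipoprotein, took 0.560%, 0.612% and 1.67% of the reads in the WT Ago libraries, 1.02%, 1.09% and 2.04% in the KO Ago libraries and 1.51% to 2.51% in the IgG libraries. WT Ago library 10 and KO Ago library 13 thus stood apart from the others of their groups, and results are also given without them. Of 17 erythroid markers 12 had peaks, at 1.598% to 1.93% of WT Ago reads and 1.16% to 1.44% of KO Ago reads. The globin genes Hba-a1, Hba-a2, Hbb-bs and Hbb-bt were not among the names with a peak. Macrophage markers took 0.0216% to 0.0478% of WT Ago and 0.0375% to 0.0399% of KO Ago reads, with Cd163 without a peak, and 4 of 7 megakaryocyte and 5 of 9 endothelial and stellate markers had none.

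Apolipoprotein peaks held 0.168%, 0.237% and 0.488% of the reads in the WT Ago libraries. With KO Ago they held 0.316%, 0.412% and 0.605%. The groups overlapped, with WT library 10 above KO libraries 3 and 12, and within each group the order of the libraries was that of the hepatocyte markers. In WT IgG the share was 0.324%, 0.370% and 0.431%, and in KO IgG it was 0.296%, 0.402% and 0.357%. The apolipoprotein share of the reads in the control precipitation therefore lay within the range of the Ago libraries. In bulk samples such as these, fewer hepatocytes and less of an mRNA per hepatocyte cannot be told apart.

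**Figure D1:**
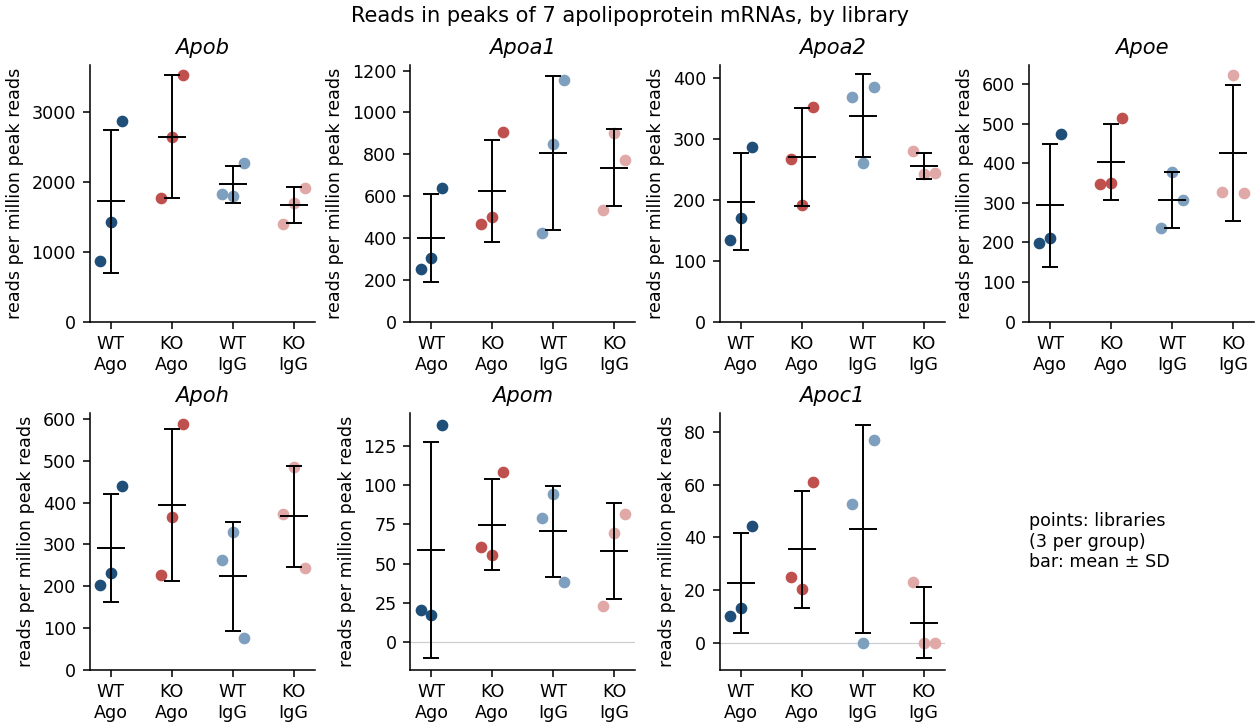
RPM (reads scaled to 1000000 reads in all peaks of a library) in the peaks of each of 7 apolipoprotein genes, in each library. Points are libraries, bars mean and SD (n = 3). In WT Ago, library 10 (rightmost point) is the highest for every gene, and KO Ago overlaps WT Ago for every gene.

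Apob, on chr12:7977629-8016839 (mm10), carried 154 of the 216 peaks and 3609 reads. Scaled to 1000000 reads in all peaks of a library (RPM), its reads were 869.8, 1419.9 and 2859 for WT Ago. They were 1771, 2639 and 3521 for KO Ago, 1793 to 2271 in WT IgG and 1398 to 1909 in KO IgG. Library 10 lay above KO libraries 3 and 12, so the genotypes overlapped, and the WT IgG values lay between the WT Ago values. Apob made up 51.6% to 64.0% of apolipoprotein reads in the Ago libraries and 42.2% to 56.1% in the IgG libraries.

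The high-density lipoprotein genes had fewer and denser peaks. Apoa1, on chr9:46228630-46230469, had 12 peaks and 889 reads, at 250.0, 305.2 and 640.8 RPM for WT Ago and 467.8, 501.4 and 905.6 for KO Ago. Its WT IgG libraries held 421.2, 849.1 and 1155 RPM and its KO IgG libraries 535.9, 900.2 and 771.7. Most IgG values were thus above most Ago values for Apoa1. Apoa2, on chr1:171221564-171226379, had 7 peaks and 404 reads, at 133.6, 170.3 and 285.9 RPM for WT Ago and 266.6, 190.6 and 351.4 for KO Ago. In WT IgG it held 368.6, 259.4 and 384.8 and in KO IgG 279.6, 242.4 and 243.7, so its genotypes overlapped in the Ago libraries.

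Apom, also found on high-density lipoprotein, lies on chr17:35128997-35131801 and had 6 peaks with 102 reads. It was at 20.5, 17.7 and 138.0 RPM for WT Ago, with library 10 above all the others, and at 60.4, 55.7 and 108.1 for KO Ago. In the IgG libraries it had 1 to 4 reads each.

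Of the exchangeable apolipoproteins, Apoe on chr7:19696244-19701310 had 14 peaks and 586 reads. Its WT Ago libraries held 198.6, 210.1 and 473.2 RPM and its KO Ago libraries 347.1, 348.9 and 513.6. Its IgG libraries ranged from 236.9 to 623.2, the highest of them KO IgG library 8. Apoc1, its neighbour on chr7:19689480-19692659, had 3 peaks and 44 reads in all, 18 of them from WT Ago, 21 from KO Ago and 5 from IgG libraries. It was at 10.3, 13.3 and 44.4 RPM for WT Ago and 25.2, 20.5 and 60.8 for KO Ago. With all libraries of a comparison and the default filter, Apoc1 was too shallow for any test.

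Apoh, on chr11:108395297-108414396, had 20 peaks and 572 reads. The table gives Apoh 1 of them, classed as intron and with 26 reads, at chr11:108374791-108374812, which lies before this start and outside the interval given. The gene's values were 202.0, 232.2 and 438.7 RPM for WT Ago and 226.4, 366.5 and 588.0 for KO Ago. KO library 3 fell among the WT libraries here. In WT IgG Apoh was at 263.3, 330.2 and 77.0, and in KO IgG at 372.8, 484.7 and 243.7.

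Levels can be set between genes only per length. On the scale of RPM per kb of peak length, Apoa1 was at 768.1 ± 407.5 with WT Ago and 1204 ± 469.4 with KO Ago (SD, n = 3 per group). Apoa2 was at 795.9 ± 321.8 and 1091 ± 325.8 and could not be ordered against Apoa1, which was the higher in 3 of 6 Ago libraries. Apoe followed at 561.0 ± 296.4 and 769.5 ± 182.5, Apoh at 439.6 ± 194.6 and 594.6 ± 275.4 and Apob at 349.7 ± 209.3 and 538.7 ± 178.4. Apoc1 was at 246.0 ± 205.2 and 385.9 ± 239.7 and Apom at 229.5 ± 268.2 and 291.9 ± 113.3. All neighbours in this order had means closer than the larger of their SDs, although within a library Apoa2 was above Apoe, Apoe above Apoh and Apob above Apoc1 in 6 of 6 Ago libraries. The authors' deposited mean coverage per base of the whole gene, a pooled value without error, gave Apoa1 4.27, Apoa2 3.95, Apoh 2.79, Apoe 2.77, Apob 2.18, Apom 0.888 and Apoc1 0.712.

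The reads lay mainly in coding sequence. Of the 216 peaks, 174 (80.6%) were classed as coding by the authors, against 33.6% of the other 106166 peaks in the table, 15 (6.94%) as 3′ UTR against 28.1%, 22 as intron and 5 as 5′ UTR. The other peaks include intergenic ones, 20.9% of them with 16.7% of their Ago reads. Intergenic peaks name no gene, so the rule could not pick them, and the shares are not on a like base. Apob alone supplied 131 of the 174 coding peaks. Coding peaks carried 74.9% of the apolipoprotein Ago reads and 3′ UTR peaks 10.8%, where 3′ UTR peaks carried 31.5% of the Ago reads of all other peaks. The median apolipoprotein peak was 30 nt wide and held 19 reads over the 12 libraries. Apart from Apob, the peak with most reads held 22.9% to 45.5% of its gene's reads, but that of Apob held 5.74%. The authors' density over background, a score for the coverage of a peak against the average of its gene, was above 5 for 5 of the 216 peaks (2.31%) and for 29.2% of other gene peaks.

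Along the genomic span of Apob, introns included, reads were densest toward the end of the gene. With this span divided into 10 equal parts, the last 3 parts held 16.7%, 28.4% and 26.3% of its Ago reads and 107 of its 154 peaks, and the first part 11.5%. The parts were not corrected for how much exon each holds, so these shares do not give positions along the mRNA. By class, 131 peaks were coding, 11 in the 3′ UTR, 11 intronic and 1 in the 5′ UTR. The coding peaks held 1198 reads of WT Ago, 1372 of KO Ago and 305 of IgG libraries, and the 3′ UTR peaks 194, 269 and 37. The peak with most reads, chr12:7979274-7979314, lay in coding sequence 1645 nt past the gene's start, with 16, 36 and 38 reads for WT Ago and 25, 41 and 35 for KO Ago. It had 1 to 5 reads in each IgG library.

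**Figure D2:**
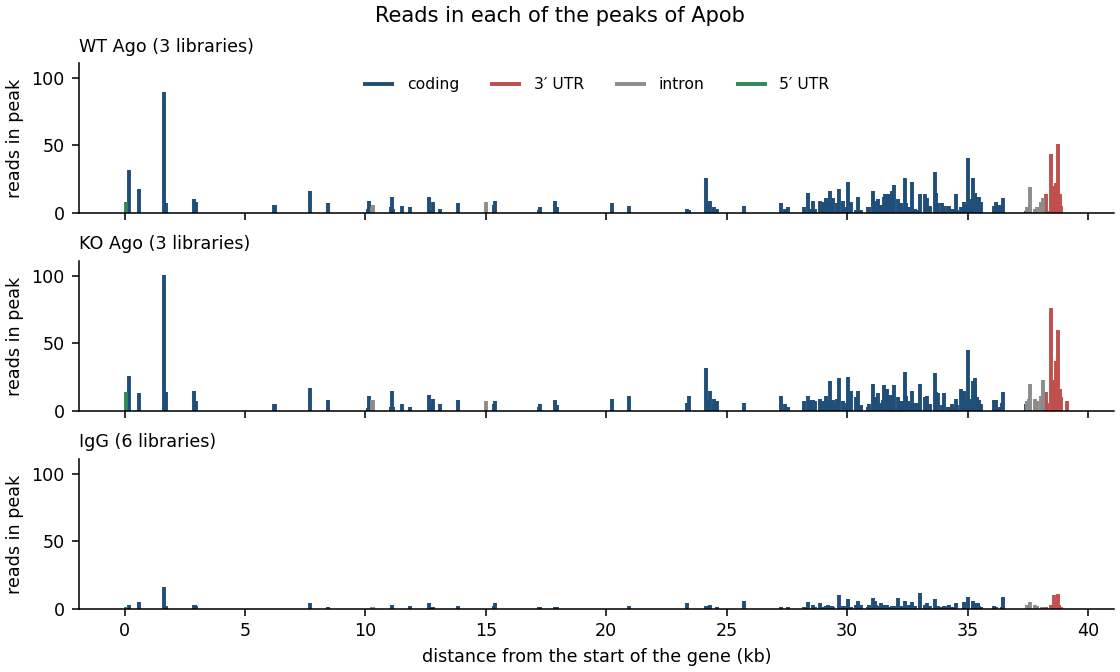
Reads in each Apob peak against its genomic distance in kb, introns included, from the start of the gene. Reads are summed over the 3 WT Ago, 3 KO Ago or 6 IgG libraries and coloured by feature class. Peaks are spread over the gene and crowd toward its end in both genotypes.

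The seed sequences of the deleted microRNAs were compared with the peaks through the authors' deposited seed codes, which score the best match from a single mismatch through a 6-mer to an 8-mer. They are shown because the knockout removes them, with miR-16-5p, left in place in both genotypes, for comparison. The mature sequences are those of RefSeq (GRCm38.p6), 5′ to 3′, with bases 2 to 8 in capitals, and 5 of the 6 microRNAs coded in the table were matched there.
miR-451a: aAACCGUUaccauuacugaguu
miR-144-3p: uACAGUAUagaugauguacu
miR-144-5p: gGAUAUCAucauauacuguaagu
miR-16-5p: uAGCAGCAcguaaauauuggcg
The first 3 derive from the deleted locus on chromosome 11 and share no seed. A complete site for these seeds reads AACGGUU for miR-451a, AUACUGU for miR-144-3p and UGAUAUC for miR-144-5p.

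No apolipoprotein peak had a miR-451a match of a 6-mer or longer (0 of 216), where 1.03% of the other peaks had one. Here and for the microRNAs below, the other peaks again include the intergenic ones. For miR-144-3p 4 of 216 peaks (1.85%) had one, against 3.32% of the others, and for miR-144-5p 2 peaks (0.926%) against 0.634%. All 6 lay in Apob, 5 of them in coding sequence and 1 in an intron. The 4 miR-144-3p peaks were chr12:7977804-7977844, chr12:8005835-8005927, chr12:8008685-8008726 and chr12:8010335-8010360. Only chr12:8008685-8008726 had more than a 6-mer, a 7-mer-m8, and it held 4, 7 and 5 reads for WT Ago and 3, 11 and 6 for KO Ago, beside 8 in the IgG libraries. Its values overlapped between genotypes. Together the 4 peaks held 75 WT Ago and 68 KO Ago reads. With reads pooled over the libraries of a group, the ratio of KO to WT in RPM was 1.25 (exact 95% interval 0.886 to 1.76, counting error only). The same ratio over all 216 peaks was 1.58 (1.498 to 1.67), and over the 158 peaks with no code for the locus, not even a mismatch, 1.56 (1.46 to 1.67). These intervals leave out the spread between libraries, and in each of these sets the RPM of single libraries overlapped between genotypes. Those 158 made up 73.1% of apolipoprotein peaks, against 59.3% of the others.

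For the microRNAs outside the locus, miR-16-5p had a 6-mer or longer in 4 peaks, 3 of Apob and 1 of Apoa2, at 1.85% of peaks against 6.39% of the others. The abundant hepatocyte microRNA miR-122-5p had one in 6 peaks. These were 4 of Apob, 1 of Apoh and 1 of Apoa1, at 2.78% of peaks against 1.63% of the others. The 6 peaks held 131 WT Ago and 135 KO Ago reads, a pooled ratio of KO to WT in RPM of 1.42 (1.11 to 1.82, counting error only). By library the 6 peaks were at 99.3, 119.4 and 236.6 RPM for WT Ago. For KO Ago they were at 140.8, 199.4 and 263.6, so the genotypes overlapped. The authors looked for seeds of 6 microRNAs, so a peak without a code may hold a site for any other.

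The first comparison asked whether Ago held more or less of these mRNAs without miR-144/451. No apolipoprotein gene was called in either direction with edgeR's quasi-likelihood test over 4441 genes, of which 5.29% were lower and 0.653% higher in KO. Of the 6 genes deep enough to test, all 6 had a KO value above WT, as did 52.5% of all genes tested. Their median log2 difference was 0.44 where the median of all genes was 0.03, and 0 had an unadjusted p under 0.05. The 6 were measured in the same libraries, so they are not independent results. DESeq2 also called 0, as did limma-voom, which gave 2 unadjusted p-values under 0.05. The groups overlapped for each of the 6, where 11.6% of all genes had every KO library above every WT library.

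For the core protein of the large particles, Apob, the log2 difference of KO and WT was 0.58 ± 0.33 (SE, edgeR adjusted p 0.32). For Apoa1 it was 0.61 ± 0.33 (adjusted p 0.29) and for Apoa2 0.41 ± 0.30 (0.45). Apom was at 0.45 ± 0.64 (0.72), Apoe at 0.43 ± 0.31 (0.43) and Apoh at 0.39 ± 0.33 (0.51). These differences are 1 to 2 SE from 0 for every gene but Apom, and they differed from each other by less than 1 SE. Without WT Ago library 10, where 1.64% of all genes were called higher, 4 of the 6 were so, namely Apob at 1.15 (adjusted p 0.011), Apoa1 at 1.08 (0.024), Apoe at 0.90 (0.033) and Apom at 1.84 (0.032). Without WT Ago library 10 and KO Ago library 13 together none was called and the median was 0.74, and over the libraries left out one at a time the median ranged from 0.20 to 0.99.

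**Figure D3:**
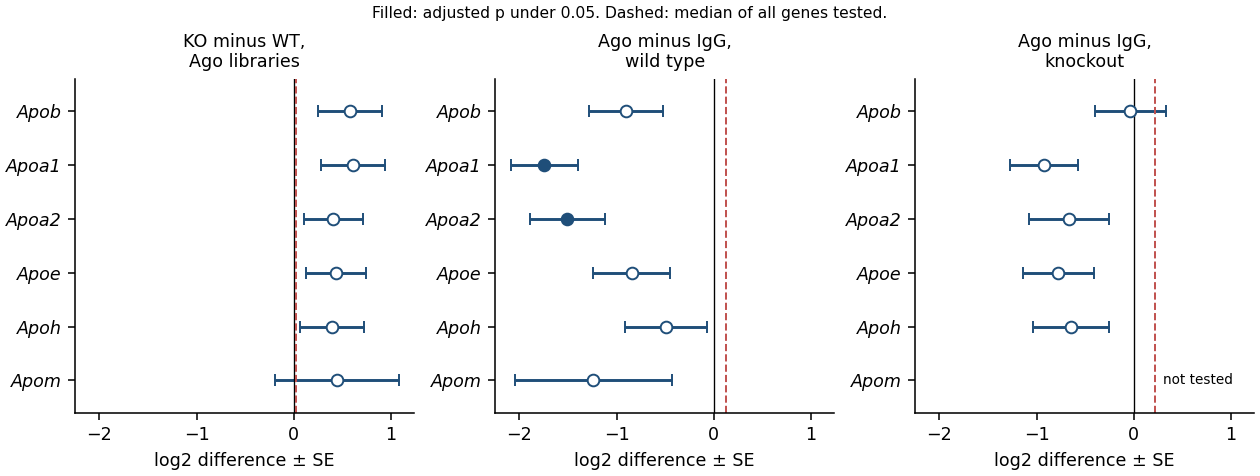
Log2 differences ± SE from edgeR per gene for KO against WT in Ago libraries and for Ago against IgG in each genotype. The dashed line is the median of all genes tested and filled points passed an adjusted p of 0.05. KO against WT lies above 0 for all 6 genes with none called, and Ago against IgG is called lower in WT for Apoa1 and Apoa2.

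The difference between genotypes moved with the hepatocyte markers. All 16 hepatocyte markers tested lay above 0 in KO, with a median log2 difference of 0.55 and none called (Alb 0.43 ± 0.38, adjusted p 0.53, and Afp 0.61 ± 0.35, 0.32). Per 100 reads in the hepatocyte list, apolipoprotein peaks had 30.1, 38.7 and 29.2 reads for WT Ago and 30.9, 38.0 and 29.6 for KO Ago. The means were 32.6 ± 5.2 and 32.8 ± 4.5 (SD, n = 3), with the ranges of the genotypes nearly the same. By gene the means per 100 hepatocyte reads were 18.6 ± 4.0 in WT and 19.6 ± 4.1 in KO for Apob, 4.43 ± 0.58 and 4.54 ± 0.10 for Apoa1 and 2.29 ± 0.54 and 2.03 ± 0.50 for Apoa2. They were 3.27 ± 0.39 and 3.04 ± 0.46 for Apoe and 3.34 ± 0.63 and 2.82 ± 0.58 for Apoh. With the hepatocyte reads as library size in edgeR, the lowest of the 6 log2 differences was -0.24 (Apoh), 3 lay above 0 and none was called. The median of the 6 was -0.03, where the median of all genes was -0.65. Whether the KO samples held more hepatocytes, or hepatocytes with more such mRNA, was not tested.

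**Figure D4:**
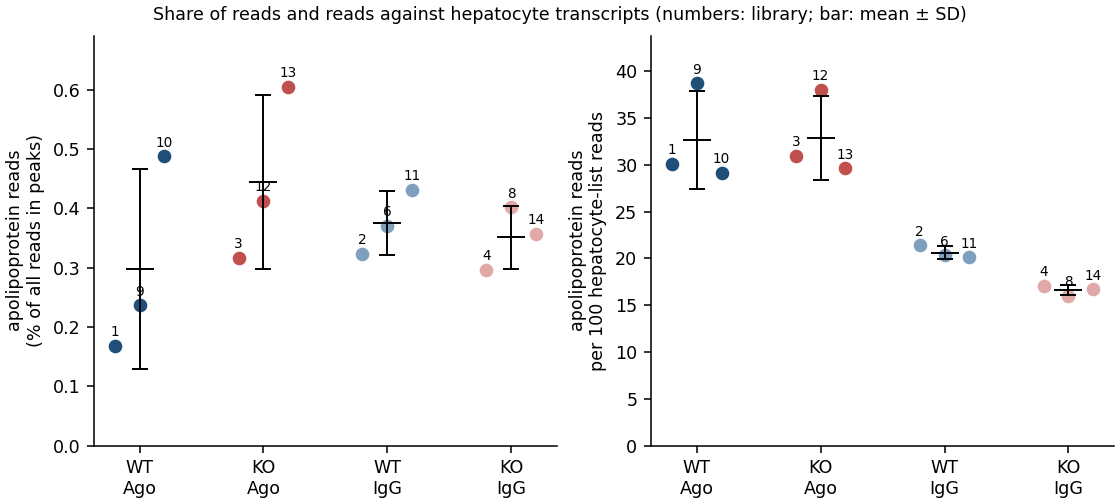
Left, the share of all reads in peaks that lay in apolipoprotein peaks, per library. Right, the same reads per 100 reads in peaks of the hepatocyte list. Numbers are library numbers, bars mean and SD (n = 3). On the right the genotypes coincide in the Ago libraries and every IgG library, at 16.02 to 21.4, lies below every Ago library, at 29.2 to 38.7.

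Peak by peak, 17 of the 216 peaks were deep enough for the test of KO against WT in Ago libraries, and none was called, where 17.6% of 2425 peaks were lower and 1.40% higher in KO. The 17 belonged to Apob (7), Apoa1 (5), Apoa2 (2), Apoe (2) and Apoh (1). All 17 lay above 0, as did 55.3% of all peaks tested. Their median log2 difference was 0.41 against 0.09 for all peaks tested, and 1 had an unadjusted p under 0.05. The 17 share libraries and in part genes, so they are not independent results. DESeq2 and limma-voom called none either, with 1 and 2 at an unadjusted p under 0.05. Without WT Ago library 1, 9 of 19 peaks lay above 0 and the median was -0.01. Library size alone called 1 peak higher, where 2.85% of all peaks tested were higher. The groups overlapped for all 17 peaks, where 10.1% of the peaks tested had every KO library above every WT library.

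The peak with the smallest p was chr12:8016104-8016148 in the 3′ UTR of Apob. It held 7, 22 and 15 reads for WT Ago and 14, 42 and 20 for KO Ago, with 3 reads in all IgG libraries. On the scale of counts per 1000000 in tested peaks (CPM) these were 170.4, 351.2 and 493.0 in WT and 415.9, 796.1 and 760.8 in KO, so KO library 3 lay below WT library 10. The log2 difference was 0.99 ± 0.40 (edgeR adjusted p 0.11), and it was called with library size alone (1.15, adjusted p 0.049) and without KO Ago library 3 (1.25, 0.033). This peak had a 6-mer for miR-16-5p and a single-mismatch code for miR-144-3p.

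The peak with most reads in Apoa1, chr9:46229169-46229207 in coding sequence, had 16, 31 and 27 WT Ago reads and 30, 45 and 29 KO Ago reads, a log2 difference of 0.71 ± 0.34 (edgeR adjusted p 0.20). It was called without WT Ago library 10 (1.04, adjusted p 0.0499). That of Apoh, chr11:108414277-108414299, also coding, had 9, 26 and 20 against 16, 38 and 21 reads and a difference of 0.66 ± 0.38 (0.31). In Apoe the leading peak, chr7:19697066-19697100 in coding sequence, had 9, 23 and 23 against 21, 30 and 21 reads (0.61 ± 0.40, adjusted p 0.39). The leading Apob peak near the gene's start was at 0.39 ± 0.40 (0.61). In Apoa2 it was chr1:171225302-171225335, classed as 5′ UTR, with 14, 17 and 16 against 19, 14 and 12 reads (0.19 ± 0.39, 0.81), nearly level as raw counts. In Apom (chr17:35130083-35130110, 43 reads) and Apoc1 (chr7:19692411-19692441, 20 reads) the leading peak was coding and too shallow to test.

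**Figure D5:**
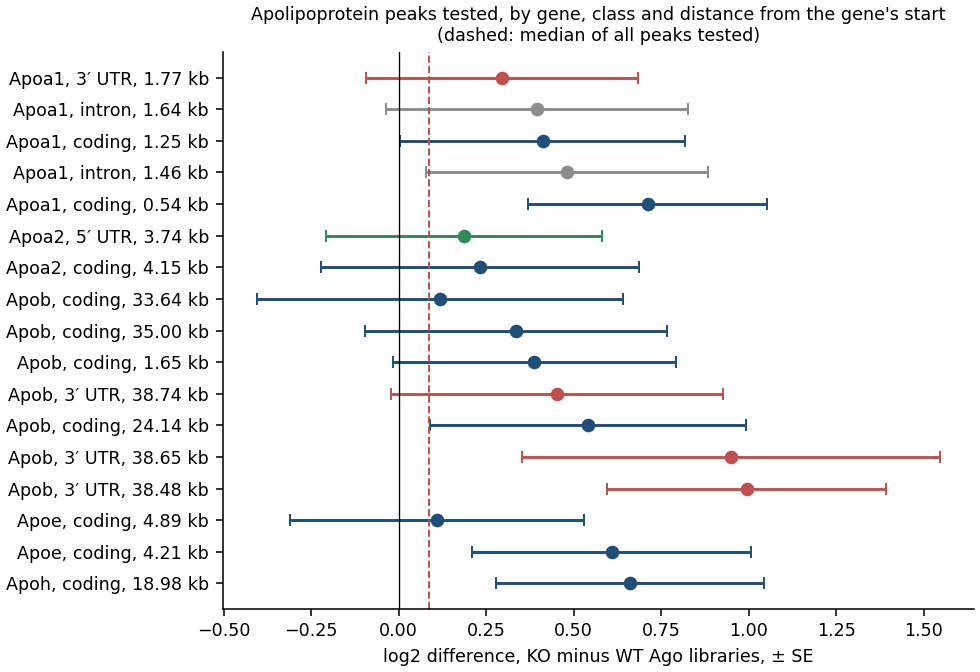
Log2 difference ± SE of KO against WT Ago libraries for the 17 apolipoprotein peaks tested, named by gene, feature class and distance from the gene's start and coloured by class. The dashed line is the median of all peaks tested. All 17 lie above 0, and 1 of them, in the 3′ UTR of Apob, has an unadjusted p under 0.05.

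Among the 6651 peaks of the authors' deposited table of differential peaks were 3 apolipoprotein peaks, none significant there, where 35.7% of the table's peaks were lower and 1.29% higher in KO at an FDR of 0.05. They were the leading Apob peak (log2 difference 0.04, FDR 0.94), the Apob 3′ UTR peak chr12:8016369-8016402 (0.18, FDR 0.82) and the leading Apoe peak (0.29, FDR 0.64). The edgeR values here for the same 3 peaks were 0.39, 0.45 and 0.61. Of the 216 peaks, 119 had an authors' IgG ratio under 0.2 and 67 a lowest height of 3 or more.

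The second comparison set Ago against IgG libraries, to see how far these mRNAs exceeded the control precipitation. In WT, Apoa1 and Apoa2 were lower in Ago than in IgG libraries relative to the other genes, which made 2 of 6 apolipoprotein genes tested. Of all 2603 genes, 13.0% were lower and 2.00% higher. Apoa1 was at a log2 difference of -1.74 ± 0.35 (edgeR adjusted p 1.2e-04) and Apoa2 at -1.51 ± 0.38 (0.0027). Apob was at -0.90 ± 0.38 (adjusted p 0.11), Apoe at -0.84 ± 0.40 (0.16), Apom at -1.24 ± 0.81 (0.36) and Apoh at -0.49 ± 0.42 (0.52). The median of the 6 was -1.07 and that of all genes 0.13. Of the 6, Apoa2 alone had every Ago library below every IgG library in CPM over the tested genes, as did 16.7% of all genes. In RPM its Ago and IgG libraries overlapped. The mRNAs of other secreted hepatocyte proteins were lower too, with 8 of 13 hepatocyte markers tested lower and none higher, among them Ttr at -1.71 ± 0.38 and Afp at -1.85 ± 0.45 (adjusted p 5.3e-04 and 0.0017).

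The sign of these differences depends on the scaling. With all reads in peaks as library size, Apoa1 remained lower at -1.01 (adjusted p 0.018), Apoa2 was at -0.78 (0.11) and Apoh at 0.26, where the median of all genes was 0.85. With the hepatocyte reads as library size all 6 lay above 0, from 0.049 (Apoa1) to 1.33 (Apoh), with none called and a median of all genes of 2.09. Against the median of all genes each of the 6 was lower under all 3 scalings. A new library size moves all genes nearly alike, so this adds no further test. The number of apolipoprotein genes called lower ranged from 1 to 4 as libraries were left out one at a time, where 5.21% to 17.3% of all genes were lower. It was 4 of 5 tested without WT Ago library 10, where the share of all genes was 17.3%.

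In KO none of 5 genes tested was called, where 10.4% of 1988 genes were lower and 2.16% higher. Apoa1 was at -0.93 ± 0.35 (edgeR adjusted p 0.081), Apoe at -0.78 ± 0.36 (0.18), Apoa2 at -0.66 ± 0.41 (0.34), Apoh at -0.65 ± 0.39 (0.33) and Apob at -0.04 ± 0.37 (0.97). Apoa1 and Apoe had an unadjusted p under 0.05. All 5 were below the median of all genes, 0.22. In CPM over the tested genes Apoa2 again was the one with every Ago library below every IgG library, as were 15.4% of genes. Its highest Ago value there was 611.8 (library 13) and its lowest IgG value 626 (library 14). In RPM its Ago and IgG libraries overlapped. Hepatocyte markers were lower for 6 of 11 tested and erythroid markers for 3 of 12, with 0 higher in either list. In WT 0 of 12 erythroid markers were lower and 2 higher. Apob lay at 0.67 (adjusted p 0.12) with all reads in peaks as library size and at 1.31 (0.013) with the hepatocyte reads. With the hepatocyte reads 48.2% of all genes were called higher with a median of 1.61, so Apob lay below that median. Apoa1 was called lower without KO Ago library 13 or without KO IgG library 4, where 15.9% and 7.69% of all genes were lower.

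Whether the step from IgG to Ago differed between genotypes was tested as an interaction over all 12 libraries, and none of 2654 genes was called. Apob was at 0.80 ± 0.52 (edgeR adjusted p 0.91), Apoa2 at 0.76 ± 0.55 (0.94), Apoa1 at 0.74 ± 0.53 (0.94), Apom at 0.91 ± 1.21 (0.97), Apoh at -0.23 ± 0.61 (0.98) and Apoe at -0.01 ± 0.61 (0.999). None of the 6 had an unadjusted p under 0.05 with edgeR, DESeq2 or limma-voom. The calls for Apoa1 and Apoa2 in WT and their absence in KO are therefore not shown to be a difference between genotypes. Between KO and WT in the IgG libraries, 0 of 251 genes were called. The 4 apolipoprotein genes tested were Apoh at 0.60 ± 0.53, Apoe at 0.42 ± 0.42, Apoa1 at -0.13 ± 0.42 and Apob at -0.23 ± 0.40, each with an edgeR adjusted p of 0.98 and none with an unadjusted p under 0.05. No apolipoprotein peak was among the 190 peaks deep enough for that test.

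As a plain share of reads, IgG libraries contributed 11.0% of all reads in peaks and 7.87% of those in peaks with a gene. For Apoa1 the IgG share was 16.9% (exact 95% binomial interval 14.5 to 19.5, counting error only), for Apoa2 14.9% (11.5 to 18.7) and for Apoe 12.5% (9.89 to 15.4). For Apoh it was 10.8% (8.41 to 13.7) and for Apob 9.98% (9.02 to 11.0). Peaks differed within a gene. The Apob 3′ UTR peak at chr12:8016104-8016148 had 3 IgG reads of 123, or 2.44% (0.506 to 6.96), and the Apoa1 peak chr9:46230089-46230122, classed as intron, 24 of 87, or 27.6% (18.5 to 38.2). An IgG ratio under 0.2 was held by 55.1% of apolipoprotein peaks, against 77.1% of the other peaks with a gene. It was held by 35.5% of hepatocyte-list peaks and 64.1% of erythroid-list peaks, so the lower share is not particular to the apolipoproteins. Apolipoprotein peaks were also deeper, with a median of 19 reads against 11 for the other peaks with a gene.

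Per peak, few were deep enough to compare Ago with IgG. In WT 2 peaks were tested and 1 was called higher, the leading Apob peak at a log2 difference of 2.18 ± 0.54 (edgeR adjusted p 0.0030), where 35.9% of 894 peaks were higher and 37.9% lower. In KO 3 were tested and all were called higher, where 40.0% of 645 peaks were higher and 23.3% lower. These 3 peaks held 16 to 45 reads in each KO Ago library and 0 to 9 in each KO IgG library. The Apob and Apoa1 peaks could pass the filter on low counts through the Ago libraries alone, the Apoh peak only with IgG libraries as well. Since the filter selects peaks partly by their Ago reads, the number called supports nothing about the members. They were the leading peaks of Apob at 4.18 ± 0.56 (7.5e-04), Apoa1 at 2.59 ± 0.52 (0.0021) and Apoh at 2.48 ± 0.65 (0.0077). Their groups did not overlap, nor did those of the Apob peak in WT, and groups apart in this direction were found for 41.2% of the peaks tested in KO and 37.5% in WT. With all reads in peaks as library size the Apob peak was at -0.0034 in WT and 1.57 in KO (adjusted p 0.049), and the Apoa1 and Apoh peaks in KO at -0.13 and -0.25. This scaling moved the median of all peaks from -0.14 to -2.38 in WT and from -0.17 to -2.86 in KO, and the apolipoprotein peaks tested stayed above the median. It moves all peaks nearly alike, so their place against the median is no further test.

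Per 100 reads in the hepatocyte list, apolipoprotein reads were fewer in the IgG libraries than in any Ago library. The values were 21.4, 20.3 and 20.1 in WT IgG and 17.1, 16.02 and 16.7 in KO IgG. The IgG share was thus higher still for the hepatocyte list, which is made up of Alb to 34.3%, Afp to 24.0% and Trf to 15.6%. By gene, Apob was at 10.8 ± 1.1 in WT IgG and 7.92 ± 1.1 in KO IgG, below its Ago values of 15.5 or more. Apoa1, at 4.28 ± 1.34 and 3.43 ± 0.29, overlapped with its Ago values in WT.

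The genes whose log2 CPM (prior count 2) over the 12 libraries were most like the apolipoproteins' were led by secreted liver proteins. Among 1202 genes with 300 reads or more, the summed apolipoprotein reads had the highest Pearson correlation with Fgg (r = 0.92), a fibrinogen chain, then Ahsg (0.89), fetuin-A, Fga (0.82), another fibrinogen chain, Glud1 (0.81), a mitochondrial enzyme, and Igf2 (0.81), a fetal growth factor. The median over the 1202 genes was -0.13. The libraries share their group's antibody and their depth, so these values are a description. Between the 5 apolipoprotein genes with 300 reads or more, the 10 pairs had r from -0.02 to 0.73 over the 12 libraries, with a median of 0.62. Over the 6 Ago libraries alone the same pairs had r from 0.76 (Apoa2 and Apoh) to 0.98 (Apoa1 and Apoe).

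Other genes of lipoprotein metabolism were seen less deeply. Of 13 further apolipoprotein genes, 8 had a peak and 4 were tested in KO against WT Ago, with none called (Apol8 at -0.41 ± 0.26, edgeR adjusted p 0.37, and Apoc2, the activator of lipoprotein lipase, at 0.82 ± 0.49, 0.34). Of 32 genes that assemble, take up or remodel lipoproteins, 14 were tested, with none called and a median of 0.48. Abca1, which loads Apoa1 with lipid, was at 0.72 ± 0.24 (0.090) and P4hb, a subunit of the triglyceride transfer complex, at 0.05 ± 0.25 (0.93). Of 19 regulators of lipid synthesis 10 were tested, with none called and a median of 0.41 (Hmgcs1 at 0.71 ± 0.26, edgeR adjusted p 0.13). Against IgG in WT, P4hb at -1.47 ± 0.41 (0.0072) and the sterol enzyme Hmgcs1 at -1.41 ± 0.34 (0.0014) were lower, which made 1 of 5 tested in each list, and P4hb was lower in KO also (-1.64 ± 0.45, 0.011). In the erythroid list, by contrast in lineage, 2 of 12 genes tested were called lower in KO Ago, where 5.29% of all genes were. These were Epor and Tfrc, the receptors for erythropoietin and transferrin. Of the 12, 2 lay above 0, the median log2 difference was -0.41 and 7 were lower with an unadjusted edgeR p under 0.05. No formal comparison with the apolipoproteins was made.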

How the data were processed

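The submitters' processing notes list mm10 and the tools limma, STAR, cutadapt and bedtools, without versions or roles. Counts are deposited raw: per the file headers' description, a read was counted for a peak it covers by 16 bases or more. The authors' deposited mean gene coverage and lowest peak height are coverage signal not scaled for depth. The authors' deposited IgG ratio compares summed peak heights, and their seed codes and density over background are deposited as scores. The authors' deposited log2 differences, p-values and false discovery rates from voom and limma were described, not recomputed.

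Counts per peak, and summed over a gene's peaks, were tested with edgeR 4.0.16 (quasi-likelihood, TMM, filterByExpr at 10 counts and a total of 15) in R 4.3.3, with the 6 libraries of each comparison and all 12 for the interaction. Adjusted p-values are Benjamini-Hochberg values over all features tested, with a threshold of 0.05. All 8 genes matched RefSeq by symbol. Alternatives included DESeq2 1.42.0 and limma-voom (limma 3.58.1). In simulated data with known changes, the KO and WT Ago test recovered 41% of 2-fold and 90% of 4-fold changes per gene. Per peak it recovered 14% and 68%. Ago against IgG per gene recovered 17% and 69% in WT and 13% and 65% in KO. KO against WT IgG per gene recovered 0% and 70%, and the interaction 4% and 23%. A missing call, above all in the interaction, thus says little about a 2-fold change. The 8 genes, the lists and the tests were chosen with earlier results of these data known. Named were all 8 genes, each gene's leading peak, the peaks with the smallest p (3 in each direction), the 5 genes most alike, and per list up to 4 called genes or else the 2 with most reads, of which 1 gene is not reported here. Class names and coordinates are as deposited, and no genome sequence was used.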

Additional observations from a re-analysis of the deposited data

How the results depend on the processing

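The alternatives were library size alone, relative log expression (RLE) scaling, no filter, DESeq2, limma-voom, 3′ UTR peaks alone, peaks with an IgG ratio under 0.2, each library left out in turn, and WT Ago library 10 and KO Ago library 13 left out together. All reads in peaks or hepatocyte list reads as library size, and peaks at least 30 nt apart, were chosen after seeing the data. The planned setting without overlapping peaks was not run, as 0 peaks overlap. No paired analysis was possible because the library numbers are all different and no group shares one with another. For the changes below the cause was not tested, other than that filters and left-out libraries change which features are tested. Of the values of single genes and peaks under the alternatives, 448 kept direction and side of the threshold, 11 passed it newly, 18 no longer passed and 58 turned direction. Of the counts of calls, 90 stayed within 1.5 times, 26 moved and 1 turned.

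Counts of apolipoprotein peaks called moved as follows. For KO against WT Ago (0), library size alone gave 1, where 2.85% of all peaks were higher. With a library left out 0 to 1 were called (1 without WT Ago library 10 or KO Ago library 3, where 0.962% and 1.12% of all peaks were higher). For Ago against IgG in WT (1 higher), all reads in peaks gave 1 lower in place of 1 higher. There 61.7% of all peaks were lower, with a median of -2.38, and both apolipoprotein peaks stayed above it. No filter gave 7 and an IgG ratio under 0.2 gave 0, where 4.06% and 0% of all peaks were higher. Left-out IgG libraries gave 1 to 2 (2 without library 2, where 41.5% of all peaks were higher). Without library 6 or 11 the count was 1, where 31% and 28.8% were higher. In KO (3 higher) all reads in peaks, no filter and an IgG ratio under 0.2 gave 1, 7 and 0, where 4.34%, 1.86% and 0% of all peaks were higher. Without KO IgG library 4, 8 or 14 the counts were 8, 9 and 7, a range of 7 to 9 with 14 to 17 peaks tested, where 37.0%, 26.8% and 28.2% of all peaks were higher. In either genotype no apolipoprotein peak was deep enough to test against IgG when an Ago library was left out.

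Counts of genes called moved in 3 comparisons. For KO against WT Ago (0) they were 0 to 4 with a library left out (4 without WT Ago library 10, where 1.64% of all genes were higher). For Ago against IgG in WT (2) they were 1 with all reads in peaks, 0 with no filter, 0 with hepatocyte reads, 0 with 3′ UTR peaks alone and 1 with peaks 30 nt apart. The shares of all genes that were lower were 10.2%, 2.73%, 3.53%, 3.35% and 14.6% in that order. With a library left out they were 1 to 4 (1 without WT Ago library 1 or 9 or WT IgG library 2 or 6), where 5.21% to 17.3% of all genes were lower. For Ago against IgG in KO (0) hepatocyte reads gave 1 (48.2% of all genes were higher), and left-out libraries 0 to 1. The count was 1 without KO Ago library 13 or KO IgG library 4, where 15.9% and 7.69% of all genes were lower.

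These log2 differences turned direction. With hepatocyte reads as library size, KO against WT Ago was -0.18 for Apoa2, -0.10 for Apoe and -0.24 for Apoh. With the same reads Ago against IgG in WT was 0.049 for Apoa1, 0.29 for Apoa2, 0.78 for Apob, 0.94 for Apoe, 1.33 for Apoh and 0.28 for Apom, and in KO 0.41 for Apoa1, 0.69 for Apoa2, 1.31 for Apob, 0.62 for Apoe and 0.68 for Apoh. With all reads in peaks as library size, Ago against IgG in WT was 0.26 for Apoh, and in KO 0.024 for Apoa2, 0.67 for Apob and 0.060 for Apoh. Apoh in WT was 0.27 with no filter. Apob in KO was 0.26 with library size alone, 0.0075 with RLE scaling, 0.59 with no filter, 0.0039 with DESeq2, 0.56 with 3′ UTR peaks alone and 0.13 with peaks 30 nt apart. Per peak, all reads in peaks gave -0.0034 for the leading Apob peak in WT, and -0.25 and -0.13 for those of Apoh and Apoa1 in KO. An IgG ratio under 0.2 gave -0.33 for the Apob peak in WT and -0.56 for the Apoa1 peak in KO. The interaction for Apoe was 0.091 with library size alone, 0.035 with all reads in peaks, 0.15 with limma-voom, 0.33 without WT Ago library 10 and KO Ago library 13 and 0.53 with peaks 30 nt apart, which gave 0.47 for Apoh.

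With single libraries left out, values turned within these ranges. KO against WT Ago ran from -0.15 to 1.84 for Apom, from -0.032 to 0.89 for the leading Apob peak and from -0.067 to 0.53 for that of Apoa2. Ago against IgG ran from -0.80 to 0.28 for Apoh in WT and from -0.19 to 0.30 for Apob in KO. KO against WT IgG ran from -0.43 to 0.094 for Apoa1. The interaction ran from -0.37 to 0.55 for Apoe and from -0.76 to 0.23 for Apoh. Depth limits these results, since 2 to 3 of 216 peaks were tested against IgG and 17 between genotypes in the Ago libraries, and Apoc1 entered no test with all libraries and the default filter.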
